A study of Mus musculus with 24 samples.

Results

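Aldehydes form from alcohols, amines, retinoids and peroxidised lipids, and cells clear them by oxidation to carboxylic acids. Aldehyde oxidases do this with a molybdenum cofactor, flavin and molecular oxygen, release reactive oxygen species, and also hydroxylate many nitrogen-containing drugs; in mice they are best known from liver. Aldehyde dehydrogenases use NAD or NADP, and in mammary tumours their activity is widely used to mark cells with stem-like properties.

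The group described here holds 8 genes, Aox1, Aox3, Aldh1a1, Aldh1a3, Aldh1b1, Aldh2, Aldh3a1 and Aldh3a2. It was selected on measured values: it was chosen by the high level of Aox3 in X2-PDPN cells against X2 cells in batch 2, and the others were taken for their enzyme family. All 8 were among the 55471 genes of the batch 1 table. The batch 2 table held 13915 genes and 6 of the 8, and Aldh1a1 and Aldh1b1 had no entry there. The filter behind that table is not stated, so a gene without an entry may have been removed by it at an unknown level. In each batch 5 of the 8 passed the filter on low counts and were tested (Aox1, Aox3, Aldh2, Aldh3a1 and Aldh3a2), and Aldh1a3 was counted in both batches but not tested.

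The RNA came from EO771 cells, a line from a mammary carcinoma of a C57BL/6 mouse, grown in culture after retroviral transduction with the pLNCX2 vector. X2 was the vector control, and CCR7 cells carried the mouse Ccr7 cDNA with a tdTomato reporter. The authors report that they controlled tdTomato levels across the derivatives, and they also stained X2 tumours for it. CCR7 cells were sorted for tdTomato and the chemokine receptor CCR7, and were then taken as negative for podoplanin (PDPN). Podoplanin is a surface glycoprotein of lymphatic endothelium and of many invasive tumour cells. CCR7-PDPN cells were the podoplanin-positive sort of the CCR7 line, and X2-PDPN cells were vector control cells sorted for podoplanin. The sample labels say that no clone was selected, while the series design speaks of subclones, and whether the groups differ by clone was not tested. Batch 1 compared X2, CCR7 and CCR7-PDPN, and batch 2 compared X2, X2-PDPN and CCR7-PDPN, with 4 libraries in each of the 6 groups (24 in all) and 22275468 to 35721027 counted reads in a library. The 4 libraries of a group were technical replicates of 1 population, so every p-value given here measures the spread between such replicates only. Replicate 1 of CCR7 in batch 1 stood apart from the rest of its group. Its 3 pairs with the others differed by 13.5 to 22.5 times the counting variance, against 2.07 to 8.48 times in the other 33 pairs of replicates. The cause was not tested, and the log2 fold changes of the tested members and of the called list genes in the CCR7 comparisons are given with and without it.

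The labels were checked on the transcripts they name. Ccr7 averaged 2798 CPM (read counts scaled to a common library size) in CCR7 cells and 3028 in CCR7-PDPN cells of batch 1 against 0.345 in X2, and in batch 2 it averaged 3177 in CCR7-PDPN, 0.660 in X2-PDPN and 0.341 in X2. Pdpn averaged 0.0618 CPM in the X2 cells of batch 1, 0.413 in the CCR7 cells and 25.6 in the CCR7-PDPN cells. Its batch 2 means were 0.161 CPM for X2, 25.6 for X2-PDPN and 24.6 for CCR7-PDPN. Of 6 epithelial markers, Krt8 stood at group means of 425 to 560 TPM (a unit that also divides by exonic length). The defining ones, Epcam, Cdh1, Krt5, Krt14 and Krt18, did not reach 1 TPM in batch 1 and had no entry in batch 2. The mesenchymal filament gene Vim stood at 1848 to 2340 TPM. Among lists for other cell types, the summed mean of 5 leucocyte genes in batch 1 was at most 0.0893 TPM and that of 4 hepatocyte genes at most 0.134, with Cd3e and Ttr at 0. None of these 9 genes had an entry in batch 2, so the lists give no value for X2-PDPN cells. The 5 endothelial genes summed to 0.914 to 1.13 TPM in batch 1, and the 3 with an entry in batch 2 to 0.908 to 1.28, most of it Lyve1. The 5 fibroblast genes summed to 99.4 to 117 TPM in batch 1, with Lum at 0, and the 3 with an entry in batch 2 to 101 to 109, most of it Pdgfra. Col1a1 of this list, like Aox3, had its lowest group mean in CCR7-PDPN of batch 1 (0.808 TPM) and its highest in X2-PDPN (3.08). Of the 3 adipocyte genes, Fabp4 differed between groups as some members did. The summed mean TPM of the 3 in batch 1 was 4.31 for X2, 0.877 for CCR7 and 0.388 for CCR7-PDPN, nearly all of it Fabp4 (4.16, 0.813 and 0.347). Adipoq went the other way, at most 1 count in a library, with its lowest mean in X2 (0.0214 TPM) and its highest in CCR7 (0.0441). Adipoq and Plin1 had no entry in batch 2, where Fabp4 stood at 3.65 for X2, 2.55 for X2-PDPN and 0.359 for CCR7-PDPN. Whether Col1a1 or Fabp4 bears on any member was not tested.

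By TPM, which allows genes to be compared, the members spanned a wide range of levels. In X2 cells of batch 1, Aldh2 stood at 507 ± 3.96 (SD, n = 4), Aldh3a2 at 32.9 ± 1.10, Aldh3a1 at 4.95 ± 0.905 and Aox1 at 3.22 ± 0.392. Aox3 (0.320 ± 0.0687), Aldh1a3 (0.271 ± 0.0564), Aldh1a1 (0.0495 ± 0.0613) and Aldh1b1 (0.0270 ± 0.0313) were all below 1 TPM. Neighbours in this order did not overlap down to Aox1, whereas Aox3 overlapped with Aldh1a3 and Aldh1a1 with Aldh1b1. Aldh2 alone made up between 91.0% and 92.4% of the members' summed TPM in each of the 6 groups.

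The order of the middle members differed between cell populations. In X2-PDPN cells Aldh2 was at 557 ± 8.38 TPM (SD, n = 4), Aldh3a2 at 28.8 ± 1.16, Aldh3a1 at 15.2 ± 0.985, Aox1 at 6.42 ± 1.04, Aox3 at 4.16 ± 0.141 and Aldh1a3 at 0.230 ± 0.102. Aox3 was thus above 1 TPM in X2-PDPN cells and in no other group. In CCR7-PDPN cells of both batches Aox1 (5.25 ± 0.606 and 4.77 ± 0.488 TPM) lay above Aldh3a1 (3.74 ± 0.380 and 3.82 ± 0.292), with no overlap between the libraries, the reverse of their order in X2.

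**Figure D1:**
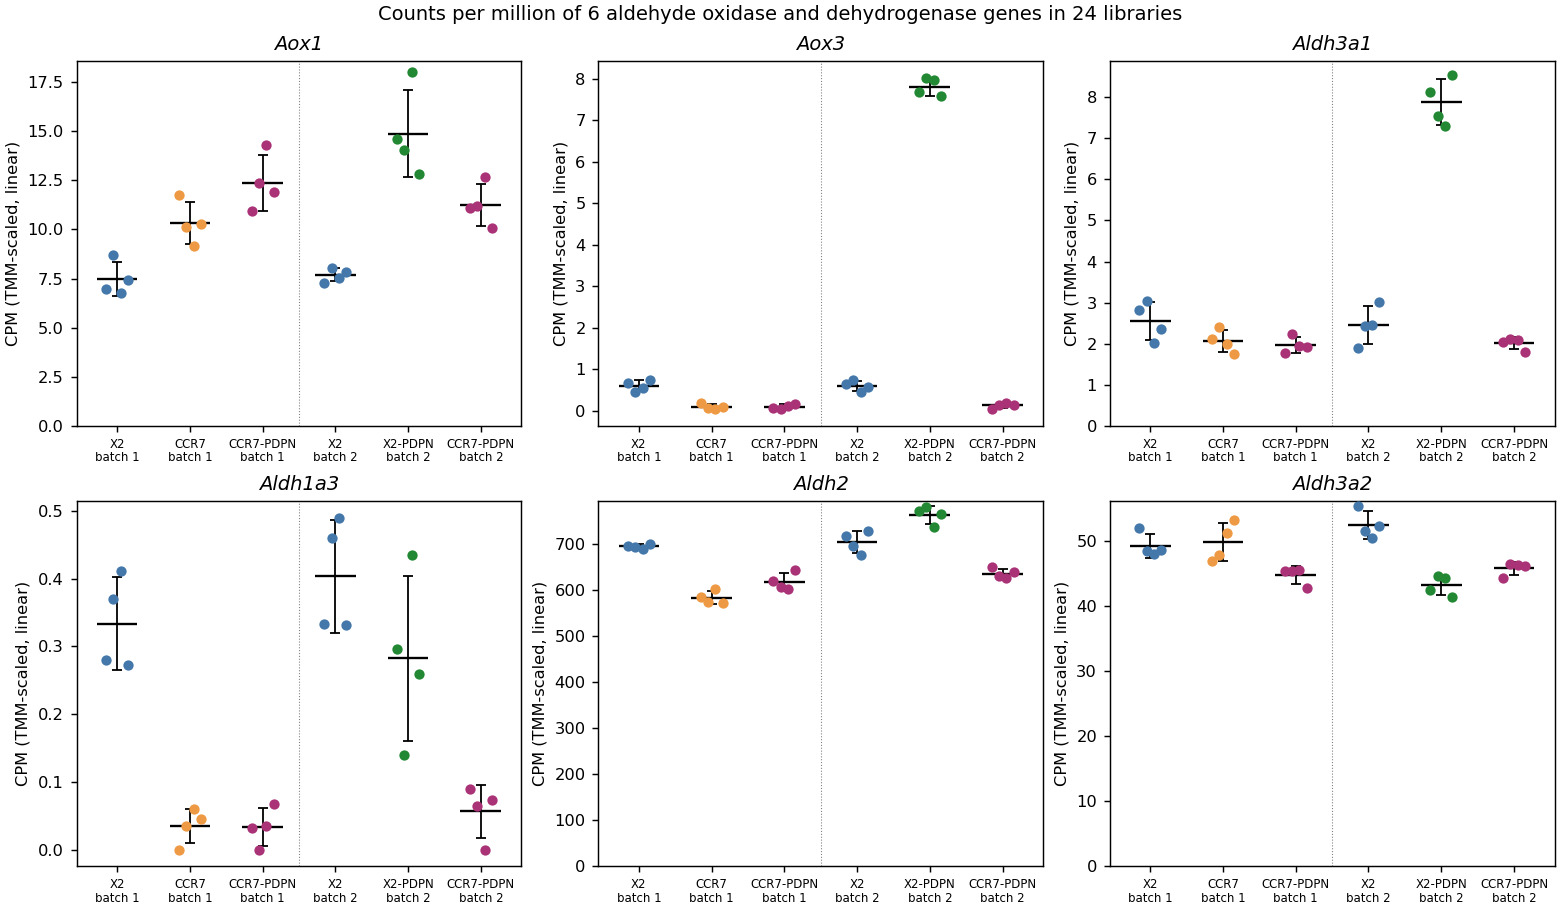
CPM (vertical axes, linear, each from 0) of 6 of the genes in each of the 24 libraries, by cell population and batch; points are libraries, bars are the mean of 4 and whiskers the SD. Aox3 and Aldh3a1 sit highest in X2-PDPN, at 7.57 to 8.02 and 7.29 to 8.53 CPM.

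Within each batch, all tested genes were compared with edgeR's quasi-likelihood test and Benjamini-Hochberg adjustment, 13261 genes in batch 1 and 13314 in batch 2. A gene was called higher or lower when its adjusted p was under 0.05 and its log2 fold change lay beyond 1 or −1, and the words rose and fell are kept for such calls. In CCR7 against X2 cells, which asks what CCR7 without podoplanin goes with, edgeR called 1 of the 5 members tested lower, Aox3 (3.18% of all tested genes were called lower), and 0 higher (3.30%). In CCR7-PDPN against X2 of batch 1 it called 1 of 5 lower, again Aox3 (5.36% of all genes), and 0 higher (4.09%). In batch 1 Aox3 passed the filter on low counts through X2 alone, with 4 X2 libraries at the filter's CPM limit and 0 of the CCR7 and CCR7-PDPN libraries. Whether a gene of this level is tested thus depends on its being high in some group, and nothing is read from 1 of 5 beside these percentages. DESeq2's own filter also left Aldh1a3 with an adjusted p, and Aldh1a1 too in CCR7-PDPN against X2 of batch 1. DESeq2 called Aox3 and Aldh1a3 lower in both comparisons and 0 higher. At an unadjusted p under 0.05, 1 member was higher and 2 were lower in CCR7 against X2, where 27.2% and 27.6% of all tested genes were. In CCR7-PDPN against X2 it was 1 higher and 4 lower, beside 32.0% and 32.2% of all genes.

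Between CCR7-PDPN and CCR7 cells, which differ in podoplanin, edgeR called 0 of 5 members higher (0.664% of all genes) and 0 lower (2.60%). At an unadjusted p under 0.05 there were 2 higher and 1 lower, beside 24.6% and 24.4% of all genes, and DESeq2 called 0 in each direction. Without replicate 1 of CCR7, edgeR's member calls stayed the same in both comparisons with CCR7. In batch 2 Aox3 is left out of the counts because X2-PDPN chose it and all 3 groups share the fit. Of the other 4 members tested, edgeR called 0 higher (3.96% of all genes) and 0 lower (5.67%) in CCR7-PDPN against X2, with 1 higher and 3 lower at an unadjusted p under 0.05 (33.5% and 34.2% of all genes). DESeq2 called 0 higher and 1 lower there, Aldh1a3. In CCR7-PDPN against X2-PDPN, which compares podoplanin-positive cells with and without CCR7, Aldh3a1 fell, as 1 of 4 (6.40% of all genes lower), and edgeR called 0 higher (2.76%), with 1 higher and 3 lower at an unadjusted p under 0.05 (32.6% and 33.3% of all genes). DESeq2 called 0 higher and 2 lower there, Aldh1a3 and Aldh3a1. Aldh3a1 was highest in X2-PDPN, and the members were chosen with earlier results known, so its call there is not independent of that choice. X2-PDPN against X2 was the contrast that chose Aox3, so its values are a description only: 2 members exceeded a log2 fold change of 1 and 0 lay below −1, where 3.51% and 1.55% of all genes were called, and 30.1% and 30.5% were higher and lower at an unadjusted p under 0.05. The counts of called genes and the unadjusted counts of the gene lists given further on stand beside the same percentages for their comparison. Nothing is read from these counts.

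**Figure D2:**
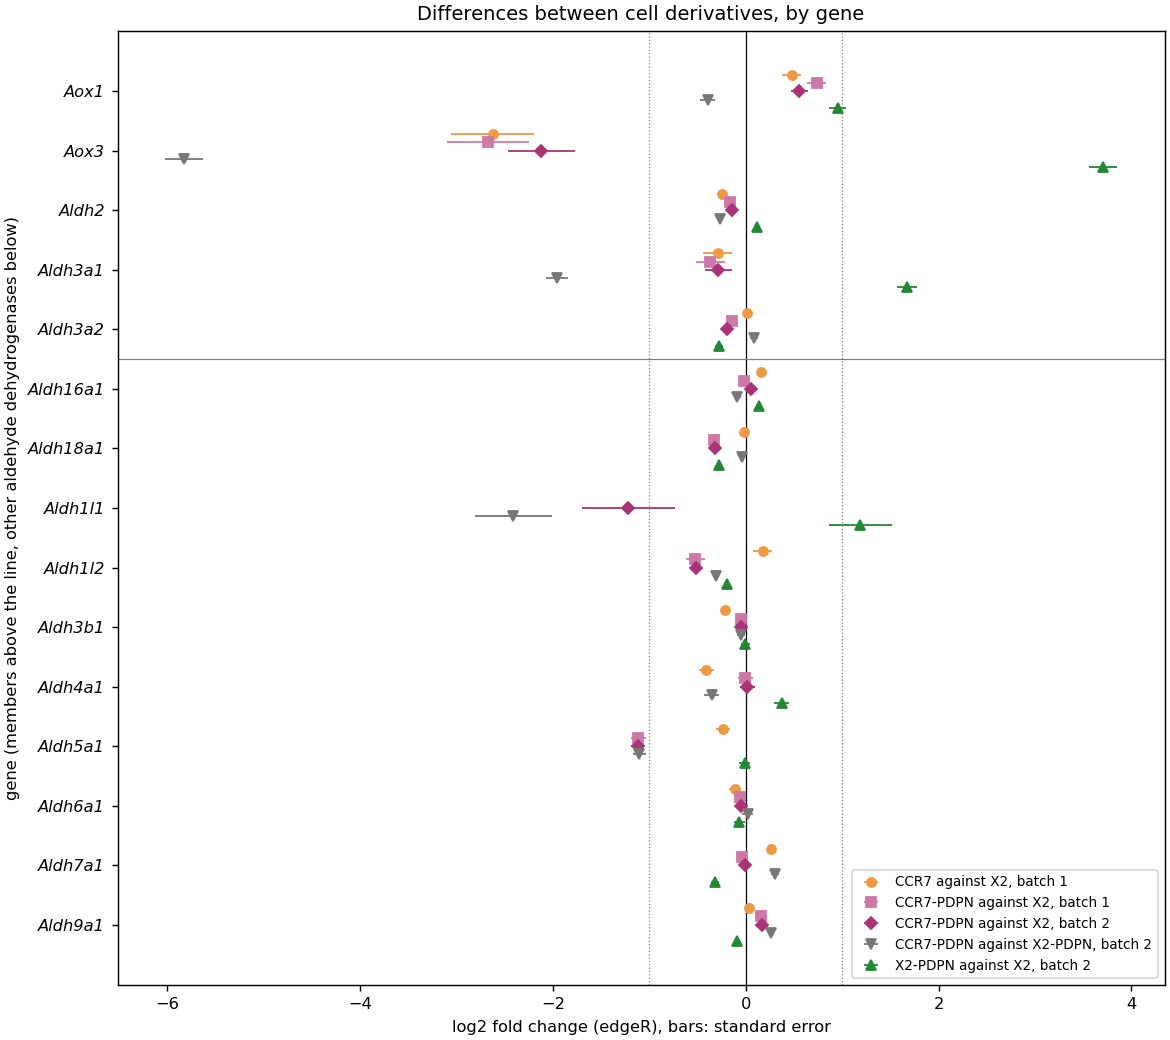
Log2 fold changes (horizontal axis) with their standard errors for the 5 tested members and 10 other aldehyde dehydrogenases in 5 comparisons, with dotted lines at 1 and −1. Aox3 lies beyond −1 in each comparison of CCR7-bearing with control cells and beyond 1 in X2-PDPN against X2.

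Aox3 encodes an aldehyde oxidase that is abundant in mouse liver, and it lies on chromosome 1 from 58113130 to 58200698 on the forward strand (ENSMUSG00000064294, GRCm38). In X2 cells of batch 1 its 4 libraries held 0.664, 0.453, 0.538 and 0.749 CPM, from 19, 11, 17 and 22 counts. In CCR7 cells they held 0.186, 0.0696, 0.0300 and 0.0900 CPM, from 6, 2, 1 and 2 counts, and in CCR7-PDPN cells 0.0630, 0.0320, 0.106 and 0.169 CPM, from 2, 1, 3 and 5 counts. Every X2 library was above every CCR7 and CCR7-PDPN library, and the latter groups overlapped. For Aox3 edgeR fitted a log2 fold change of −2.63 in CCR7 against X2 (SE 0.427, edgeR adjusted p = 2.54e-05) and −2.68 in CCR7-PDPN against X2 (SE 0.426, adjusted p = 1.33e-05), on counts of 6 or fewer in every CCR7-bearing library. With no filter on low counts, which Aox3 passed through X2 alone, the values were −2.63 (SE 0.467, adjusted p = 1.95e-07) and −2.67 (SE 0.466, adjusted p = 7.20e-08). The ratio of pooled counts, X2 over CCR7, was 6.42 with a 95% interval of 3.37 to 13.4, and X2 over CCR7-PDPN it was 6.66 (3.50 to 13.96). Without replicate 1 of CCR7, the library with 6 counts, the first log2 fold change was −3.26 (SE 0.508, adjusted p = 2.72e-06) and the first ratio 10.2 (4.17 to 32.4). Between CCR7-PDPN and CCR7 the log2 fold change was −0.05 (SE 0.632, adjusted p = 0.96), or 0.58 without that replicate (SE 0.751, adjusted p = 0.552), and a difference there was not detectable at this depth. Intervals and detection limits given here cover counting error only, and in these bulk samples fewer cells with a transcript and less of it per cell cannot be told apart.

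The values that chose Aox3 came from batch 2. Its X2 libraries held 0.630, 0.742, 0.457 and 0.563 CPM (17, 21, 14 and 17 counts) and its X2-PDPN libraries 7.67, 8.02, 7.96 and 7.57 CPM (233, 288, 238 and 204 counts). All 4 X2-PDPN libraries stood apart from the rest of the series, with a log2 fold change against X2 of 3.71 (SE 0.145), a 13.1-fold difference that ranked 9 from the top among 13314 genes. CCR7-PDPN libraries of batch 2 held 0.0445, 0.129, 0.190 and 0.147 CPM, from 1, 4, 6 and 4 counts. They lay below every X2 library, with a log2 fold change of −2.12 (SE 0.350), and below every X2-PDPN library, with −5.83 (SE 0.196). Podoplanin-positive cells thus held the highest Aox3 of the series in the vector line and values near the detection limit in the CCR7 line, while Pdpn itself averaged 25.6 and 24.6 CPM. The levels of Aox3 in the X2 and CCR7-PDPN groups of both batches were close, at 0.601 and 0.598 CPM on average in X2 and 0.0925 and 0.128 in CCR7-PDPN. For scale, a count of 0 allowed up to 3 counts, or 0.0835 to 0.135 CPM depending on the library.

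Aox1 encodes the aldehyde oxidase that is most widely expressed among the mouse family and lies just upstream of Aox3, from 58029931 to 58106413. Its batch 1 values were 6.99, 8.69, 6.74 and 7.42 CPM in X2, 11.7, 10.1, 9.16 and 10.3 in CCR7, and 10.9, 12.4, 14.3 and 11.9 in CCR7-PDPN. Both CCR7-bearing groups lay above X2 with no overlap, and overlapped with each other. The log2 fold change of Aox1 reached 0.48 in CCR7 against X2 (SE 0.0981, adjusted p = 0.000367), 0.73 in CCR7-PDPN against X2 (SE 0.0955, adjusted p = 1.02e-06) and 0.26 in CCR7-PDPN against CCR7 (SE 0.0910, adjusted p = 0.0277), below the fold threshold each time. Without replicate 1 of CCR7 it was 0.41 in CCR7 against X2 (SE 0.0947) and 0.33 in CCR7-PDPN against CCR7 (SE 0.0869). In batch 2 it held 7.30, 8.06, 7.54 and 7.85 CPM in X2, 14.6, 14.1, 18.0 and 12.8 in X2-PDPN and 11.1, 11.2, 12.7 and 10.1 in CCR7-PDPN. The 3 groups did not overlap, with X2 lowest and X2-PDPN highest. The log2 fold change of CCR7-PDPN was 0.55 against X2 (SE 0.0910, adjusted p = 3.51e-06) and −0.40 against X2-PDPN (SE 0.0812, adjusted p = 8.99e-05), neither of them a call. In X2-PDPN against X2 it was 0.95 (SE 0.0861), or 1.01 without replicate 4 of X2-PDPN, as a description. Aox1 and Aox3 therefore lay on opposite sides of X2 in the CCR7-bearing cells and on the same side in X2-PDPN cells, and the difference between the genes was not tested.

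The mouse genome holds further aldehyde oxidase genes downstream on the same strand. Aox4, known from the Harderian gland and skin and outside the group, lies from 58210397 to 58268597, and Aox2, known from nasal mucosa, from 58278326 to 58380259. Aox4 had 11, 5, 2 and 6 counts in X2, 19, 28, 11 and 20 in X2-PDPN and 1, 2, 0 and 0 in CCR7-PDPN of batch 2. CCR7-PDPN lay at or below the lowest value of both other groups. Aox4 passed the filter on low counts through X2-PDPN alone, with 4 libraries at the limit against 1 in X2 and 0 in CCR7-PDPN. Its edgeR calls, lower for CCR7-PDPN against X2 (adjusted p = 0.00173) and against X2-PDPN (adjusted p = 1.91e-08), are therefore set beside those with no filter (adjusted p = 0.00184 and 2.84e-08). With so few counts the ratio of pooled counts is given in place of the fitted change: X2 over CCR7-PDPN was 7.74 (95% interval 2.35 to 40.2), X2-PDPN over CCR7-PDPN 23.7 (7.82 to 118), and X2-PDPN over X2 3.06 (1.92 to 5.06), the last as a description. In batch 1 Aox4 was not tested, with 6, 6, 11 and 3 counts in X2, 3, 2, 0 and 0 in CCR7 and 5, 1, 4 and 0 in CCR7-PDPN. Aox2 reached at most 3 counts in any library of batch 1 and had no entry in batch 2.

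Of 49 genes that start within 1 Mb of it, 21 were tested in batch 1 and 22 in batch 2. Their median log2 fold changes were close to 0, at 0.04 for CCR7 and 0.01 for CCR7-PDPN against X2 of batch 1, and at 0.01 and 0.05 for CCR7-PDPN against X2 and X2-PDPN of batch 2. It was 0.06 in CCR7-PDPN against CCR7 and, as a description, 0.00 in X2-PDPN against X2. Within 0.5 Mb the median against X2-PDPN was −0.07. Apart from Aox4, the called neighbours were the unnamed gene models Gm37607 (log2 fold change 1.00 and 1.16) and Gm15834 (1.13 and 1.23), which were called higher in CCR7 and in CCR7-PDPN against X2 of batch 1, opposite to Aox3. Gm15834 passed the filter there through CCR7 alone, and with no filter it was at 1.13 (adjusted p = 0.0242) and 1.23 (adjusted p = 0.00769). Neither was called in CCR7-PDPN against X2 of batch 2, at 0.86 for Gm37607 and 0.94 for Gm15834. Around each of the 8 members the same median within 1 Mb lay between −0.12 and 0.14 in the 6 comparisons. Reads could be told apart in this cluster: 0 of the 7029 windows of 75 bases in Aox3 transcripts occurred in another gene's transcripts, against 7 of 8905 for Aox1 and 278 of 8324 for Aox4.

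**Figure D3:**
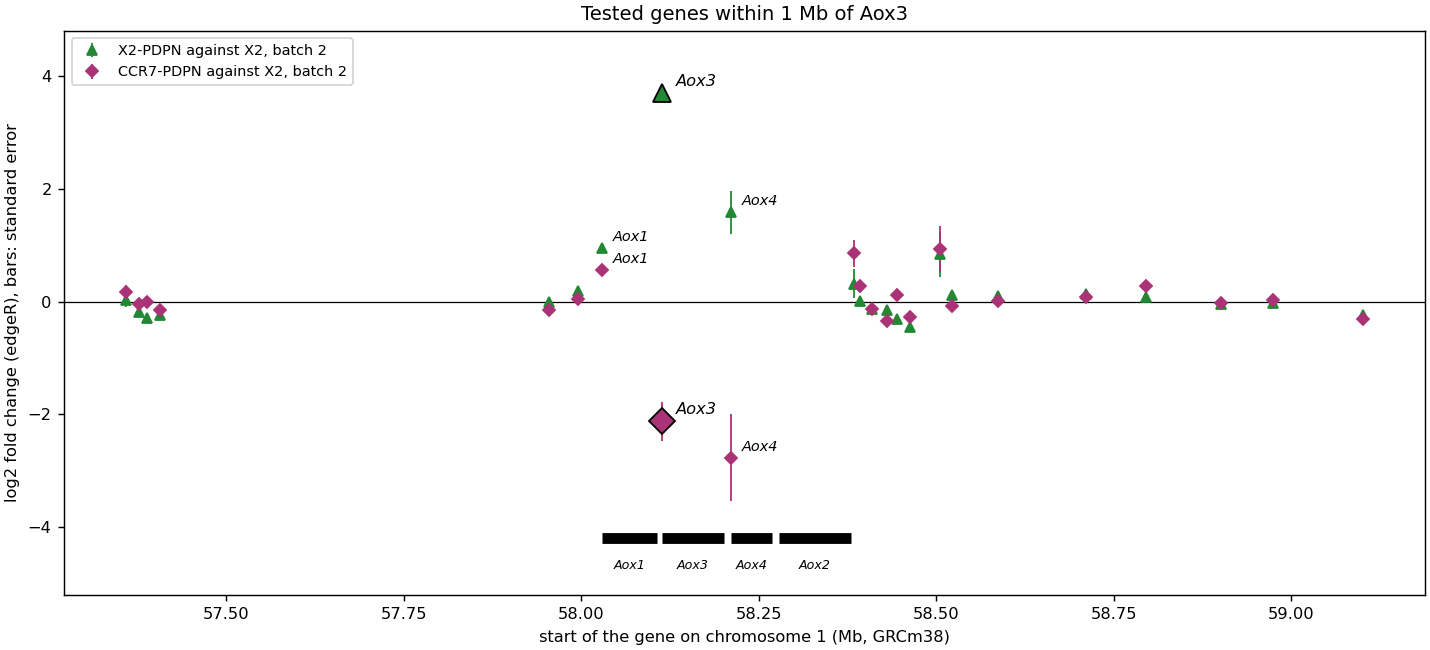
Log2 fold changes with standard errors (vertical axis) of the tested genes that start within 1 Mb of Aox3 on chromosome 1 (horizontal axis, position), for the X2-PDPN and CCR7-PDPN cells of batch 2, each against X2, with the gene bodies of Aox1, Aox3, Aox4 and Aox2 drawn to scale. Aox3, at 3.71 and −2.12, and Aox4 stand away from the other genes, whose medians are 0.00 and 0.01; the fitted values of Aox4 rest on few counts.

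Since Aox1, Aox3 and Aox4 lie in tandem and Aox3 and Aox4 were both lowest in CCR7-PDPN and highest in X2-PDPN of batch 2, their promoters are shown, 250 bases before to 50 after each start. They are from RefSeq (GRCm38.p6), all on the + strand, at chr1:58029719-58030018 for Aox1, chr1:58112886-58113185 for Aox3 and chr1:58210147-58210446 for Aox4. Of the 8 members 5 matched the promoter table, with 6 promoters, and Aldh2, Aldh1a3 and Aldh3a1 had no entry. Capitals mark matches to GCGTG, the core of the dioxin response element, searched on both strands together with TGACNNNGC, a core of the antioxidant response element.
Aox1: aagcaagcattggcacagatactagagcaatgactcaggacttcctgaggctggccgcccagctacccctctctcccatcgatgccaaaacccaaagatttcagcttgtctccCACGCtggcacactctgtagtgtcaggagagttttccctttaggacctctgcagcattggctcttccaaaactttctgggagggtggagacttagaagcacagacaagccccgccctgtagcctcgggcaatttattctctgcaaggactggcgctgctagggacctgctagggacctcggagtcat
Aox3: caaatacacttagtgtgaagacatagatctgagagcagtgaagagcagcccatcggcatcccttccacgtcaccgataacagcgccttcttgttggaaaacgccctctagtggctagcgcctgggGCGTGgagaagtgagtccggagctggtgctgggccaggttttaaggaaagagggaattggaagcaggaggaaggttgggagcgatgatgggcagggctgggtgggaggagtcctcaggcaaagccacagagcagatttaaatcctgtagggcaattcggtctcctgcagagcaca
Aox4: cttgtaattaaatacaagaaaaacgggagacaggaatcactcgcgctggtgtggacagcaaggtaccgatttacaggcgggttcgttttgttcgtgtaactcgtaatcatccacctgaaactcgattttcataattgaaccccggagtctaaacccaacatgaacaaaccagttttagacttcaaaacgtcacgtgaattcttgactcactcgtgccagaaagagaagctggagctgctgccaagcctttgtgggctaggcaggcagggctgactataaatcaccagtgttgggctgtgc
GCGTG was found once in Aox1 (on the − strand, at chr1:58029832-58029836), once in Aox3 (+ strand, chr1:58113011-58113015) and once in Aldh3a2 (chr11:61267299-61267303), and not in Aox4, Aox2, Aldh1a1 or Aldh1b1. It occurred in 10639 of all 32851 promoters of this length (32.4%). TGACNNNGC was in none of the members' matched promoters and in 4071 of all (12.4%). G and C made up 54.3% of the bases in Aox1, 55.0% in Aox3 and 47.0% in Aox4, beside a median of 52.7% over all promoters.

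Aldh2 encodes the mitochondrial enzyme that oxidises acetaldehyde from ethanol, and lies on chromosome 5 from 121566027 to 121593824. In batch 1 its libraries held 694.6, 693.3, 689.2 and 699.9 CPM in X2, 584.9, 572.3, 602.3 and 572.1 in CCR7 and 619.1, 606.9, 600.7 and 643.3 in CCR7-PDPN. Both CCR7-bearing groups were below X2 without overlap. Against X2 the log2 fold change of CCR7 was −0.25 (SE 0.0278, adjusted p = 1.31e-07) and that of CCR7-PDPN −0.17 (SE 0.0278, adjusted p = 1.97e-05), far from the fold threshold. In batch 2 it held 716.7, 695.2, 674.3 and 726.4 CPM in X2, 769.8, 780.4, 735.8 and 764.0 in X2-PDPN and 648.7, 629.1, 624.5 and 638.2 in CCR7-PDPN. The 3 groups did not overlap there, and CCR7-PDPN was lowest. The log2 fold change of CCR7-PDPN was −0.15 against X2 (SE 0.0261, adjusted p = 3.93e-06) and −0.26 against X2-PDPN (SE 0.0261, adjusted p = 5.19e-12). Between CCR7-PDPN and CCR7 it was 0.08 (SE 0.0278, adjusted p = 0.0206), and X2-PDPN against X2 it was 0.12 (SE 0.0260) as a description. Of the windows in Aldh2 transcripts 1.07% also occurred in Gm42879, an antisense gene that reached at most 12 counts.

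Aldh1b1, the second mitochondrial enzyme of the group and a close relative of Aldh2 on chromosome 4 from 45799022 to 45804604, was at the limit of detection. It had 1, 0, 1 and 0 counts in X2, 0 in all 4 CCR7 libraries and 0, 2, 0 and 0 in CCR7-PDPN of batch 1. No difference was detectable at this depth.

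The retinal dehydrogenases Aldh1a1 and Aldh1a3 make retinoic acid from retinaldehyde, and both are linked to stem-like cells in mammary tumours. Aldh1a1, on chromosome 19 from 20492715 to 20643465, had 0, 4, 3 and 0 counts in X2, 1, 0, 0 and 0 in CCR7 and 1, 0, 0 and 0 in CCR7-PDPN of batch 1. The groups overlapped, and the ratio of pooled counts, X2 over CCR7, was 7.16 with an interval from 0.920 to 323. It shared 50 of its windows of 75 bases (1.01%) with the related Aldh1a7.

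Aldh1a3, on chromosome 7 from 66390890 to 66427517, was low but unevenly spread. It had 8, 9, 13 and 8 counts in X2, 0, 1, 2 and 1 in CCR7 and 1, 0, 1 and 2 in CCR7-PDPN of batch 1. In batch 2 it had 9, 13, 15 and 10 counts in X2, 9, 5, 13 and 7 in X2-PDPN and 2, 2, 0 and 2 in CCR7-PDPN. Every control library, with or without podoplanin, held more than every CCR7-bearing library of its batch, and X2 and X2-PDPN overlapped. X2 held 9.72 times the pooled counts of CCR7 (95% interval 3.50 to 37.5) and 10.1 times those of CCR7-PDPN (3.63 to 38.9) in batch 1, after scaling by library size. In batch 2 the ratio over CCR7-PDPN was 7.58 for X2 (3.24 to 21.7) and 5.17 for X2-PDPN (2.15 to 15.1), and X2 over X2-PDPN it was 1.47 (0.923 to 2.35). Aldh1a3 did not pass edgeR's filter on low counts. With no filter, edgeR gave log2 fold changes of −3.13 in CCR7 against X2 (adjusted p = 2.72e-05), −3.17 and −2.82 in CCR7-PDPN against X2 of batches 1 and 2 (adjusted p = 1.31e-05 and 1.91e-05) and −2.27 against X2-PDPN (adjusted p = 0.000909). Unlike Aox3, it was not higher in X2-PDPN than in X2, and the difference between the genes was not tested.

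Aldh3a1 oxidises aromatic and medium-chain aldehydes, is abundant in cornea and stomach, and is known as inducible by dioxin in liver cells. It lies on chromosome 11 from 61207537 to 61218421, next to Aldh3a2. Its batch 1 libraries held 2.83, 3.05, 2.03 and 2.35 CPM in X2, 2.11, 2.40, 1.98 and 1.76 in CCR7 and 1.77, 2.24, 1.94 and 1.93 in CCR7-PDPN, and all 3 groups overlapped. In batch 2 it held 1.89, 2.44, 2.45 and 3.01 CPM in X2, 8.13, 7.54, 7.29 and 8.53 in X2-PDPN and 2.05, 2.12, 2.09 and 1.80 in CCR7-PDPN. The 4 X2-PDPN libraries stood above all others of the series, and X2 and CCR7-PDPN overlapped. Aldh3a1 fell in CCR7-PDPN against X2-PDPN, by a log2 fold change of −1.96 (SE 0.113, adjusted p = 1.95e-19). In X2-PDPN against X2 it was 1.67 (SE 0.108), a 3.19-fold difference, as a description. X2-PDPN, where Aldh3a1 was highest, chose the group, and the members were chosen with earlier results of these data known. The call in CCR7-PDPN against X2-PDPN is therefore not independent of that choice, and nothing is read from its p-value. CCR7-PDPN against X2 gave −0.37 in batch 1 (SE 0.148, adjusted p = 0.0373) and −0.28 in batch 2 (SE 0.141, adjusted p = 0.0737), CCR7 against X2 −0.29 (SE 0.148, adjusted p = 0.108) and CCR7-PDPN against CCR7 −0.07 (SE 0.153, adjusted p = 0.734), none of which was called.

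Aldh3a2 encodes the fatty aldehyde dehydrogenase of the endoplasmic reticulum, the gene lost in Sjögren-Larsson syndrome. On the opposite strand beside Aldh3a1, from 61223417 to 61267464, it had X2 libraries of 48.0 to 52.0 CPM in batch 1, CCR7 libraries of 46.9 to 53.2 and CCR7-PDPN libraries of 42.7 to 45.5. In batch 2 the X2 libraries spanned 50.4 to 55.5 CPM, the X2-PDPN libraries 41.5 to 44.6 and the CCR7-PDPN libraries 44.3 to 46.5. Both podoplanin-positive groups lay below X2 with no overlap, so its place in X2-PDPN was the reverse of that of Aldh3a1. The log2 fold change in CCR7-PDPN was −0.14 against X2 of batch 1 (SE 0.0442, adjusted p = 0.00984), −0.19 against X2 of batch 2 (SE 0.0385, adjusted p = 2.79e-05) and −0.15 against CCR7 (SE 0.0442, adjusted p = 0.00864). It was 0.01 in CCR7 against X2 (SE 0.0441, adjusted p = 0.824), 0.09 in CCR7-PDPN against X2-PDPN (SE 0.0390, adjusted p = 0.0542) and, as a description, −0.28 in X2-PDPN against X2 (SE 0.0383). None of these passed the fold threshold. Without replicate 1 of CCR7 the log2 fold changes in CCR7 against X2 were −0.25 for Aldh2, −0.30 for Aldh3a1 and 0.04 for Aldh3a2, and in CCR7-PDPN against CCR7 they were 0.08, −0.07 and −0.18.

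Patterns over libraries are given as Pearson correlations of log2 CPM, as a description, since the 24 libraries fall into 6 groups of technical replicates and share populations and batches. Among members, Aox3 and Aldh3a1 had r = 0.913 over 24 libraries and 0.538 over the 20 without X2-PDPN. Aox3 and Aldh2 had 0.886 and 0.847, Aox3 and Aldh1a3 0.646 and 0.843, and Aox1 and Aox3 0.249 and −0.780. Of 10532 genes compared, those most like Aox3 were Arhgef40 (r = 0.984), Ecm1 (0.974), Cx3cl1 (0.970), Gas7 (0.965) and Phox2a (0.964), and 147 reached 0.9. Without the X2-PDPN libraries these 5 had r between 0.834 and 0.931, and none of them was among the 5 most like Aox3. The pair most like each other member was Ltbp3 (0.938) and Gm47223 (0.936) for Aox1, Ngly1 (0.952) and Rpl15 (0.941) for Aldh1a3, and Spp1 (0.970) and Tkt (0.969) for Aldh2. For Aldh3a1 it was Cyp39a1 (0.969, and 0.724 without X2-PDPN) and Tgfbi (0.960, and 0.348 without), and for Aldh3a2 Mtpap (0.891) and Pwp1 (0.890). Of the genes named here, Arhgef40, Ngly1, Rpl15 and Tkt lie on chromosome 14 and the rest on other chromosomes. Whether those on chromosome 14 share a difference of their chromosome between populations was not tested.

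Of 15 other aldehyde dehydrogenases in the tables, 9 were tested in batch 1 and 10 in batch 2. Aldh5a1, which oxidises succinic semialdehyde from GABA, fell in CCR7-PDPN against X2 in both batches, by log2 fold changes of −1.12 (SE 0.0769, adjusted p = 4.52e-11) and −1.12 (SE 0.0690, adjusted p = 1.31e-18), and against X2-PDPN by −1.11 (SE 0.0686, adjusted p = 2.16e-18). Against CCR7 it was −0.88 (SE 0.0783, adjusted p = 1.72e-08), short of a call. In CCR7 against X2 it was −0.24 (SE 0.0713, adjusted p = 0.00793) and, as a description, −0.01 in X2-PDPN against X2 (SE 0.0598). Aldh1l1, of folate metabolism, was not tested in batch 1. In batch 2 it passed the filter on low counts through X2-PDPN alone, with 16 to 23 counts there against 4 to 11 in X2 and 1 to 6 in CCR7-PDPN. On these counts edgeR fitted a log2 fold change of −1.22 in CCR7-PDPN against X2 (SE 0.483, adjusted p = 0.0252) and −2.41 against X2-PDPN (SE 0.400, adjusted p = 1.22e-06). With no filter on low counts it was −1.22 (SE 0.486, adjusted p = 0.0271) and −2.40 (SE 0.405, adjusted p = 1.82e-06). The edgeR calls came to 0 higher and 1 lower of 9 in CCR7-PDPN against X2 of batch 1, 0 higher and 2 lower of 10 in batch 2, and 0 higher and 2 lower of 10 against X2-PDPN, Aldh1l1, tested through X2-PDPN alone, being 1 of the 2 each time. Over all tested genes 4.09%, 3.96% and 2.76% were called higher and 5.36%, 5.67% and 6.40% lower in these comparisons. DESeq2 called 0 higher and 2 lower in each of these, and at an unadjusted p under 0.05 there were 1, 1 and 2 higher and 3, 4 and 5 lower. In CCR7 against X2 and in CCR7-PDPN against CCR7 edgeR called 0 of 9 in either direction, with 2 higher and 3 lower, and 3 higher and 5 lower, at an unadjusted p under 0.05. DESeq2 called 1 lower in the former and 0 otherwise. The list's median log2 fold change in CCR7-PDPN against X2 was −0.05 in both batches, beside 0.00 over all tested genes.

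Among other molybdenum hydroxylases and cofactor genes, Suox, the mitochondrial sulphite oxidase, fell in CCR7 against X2, by a log2 fold change of −1.57 (SE 0.0905, adjusted p = 3.82e-12), or −1.56 without replicate 1 of CCR7. It also fell in CCR7-PDPN, by −1.66 (SE 0.0906, adjusted p = 8.93e-13) and −1.51 (SE 0.0814, adjusted p = 1.19e-20) against X2 of batches 1 and 2 and by −1.04 (SE 0.0851, adjusted p = 1.96e-14) against X2-PDPN. Unlike Aox3 it was not above X2 in X2-PDPN, at −0.47 (SE 0.0702). Suox was the 1 gene called lower of 8 tested in each batch 1 comparison with X2, and in each batch 2 test there were 2 of 9, Suox and Aox4, the latter tested through X2-PDPN alone. The shares of all tested genes called lower were 3.18% in CCR7 and 5.36% in CCR7-PDPN against X2 of batch 1. They were 5.67% and 6.40% in CCR7-PDPN against X2 and X2-PDPN of batch 2. In those 4 comparisons edgeR and DESeq2 called 0 higher, and DESeq2 called 2, 1, 2 and 2 lower. At an unadjusted p under 0.05 there were 1, 1, 2 and 3 higher and 4, 4, 6 and 4 lower, and between CCR7-PDPN and CCR7 both called 0 in either direction (1 higher and 2 lower unadjusted). The list's median was −0.21 and −0.33 in CCR7-PDPN against X2 of batches 1 and 2, beside 0.00 over all tested genes. Xdh, xanthine dehydrogenase and the nearest relative of the aldehyde oxidases, is named after its values were seen: its log2 fold change was −0.96 (SE 0.0414, adjusted p = 2.91e-14) and −0.98 (SE 0.0283, adjusted p = 1.25e-30) in the same comparisons, just short of a call.

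In the retinoid pathway, 17 genes were tested in batch 1 and 16 in batch 2. Adh7, which oxidises retinol, fell in CCR7-PDPN against X2 by −1.08 (SE 0.0889, adjusted p = 9.08e-10) and −1.12 (SE 0.0914, adjusted p = 1.47e-14) on the log2 scale in batches 1 and 2, as did the retinoic acid carrier Crabp2, by −1.32 (SE 0.289, adjusted p = 0.000477) and −1.47 (SE 0.305, adjusted p = 4.72e-05). Stra6, the receptor for retinol-binding protein, rose by 1.85 (SE 0.117, adjusted p = 1.15e-11) and 1.54 (SE 0.120, adjusted p = 3.39e-15), and by 1.69 in CCR7 against X2 (SE 0.120, adjusted p = 1.31e-10), or 1.71 without replicate 1 of CCR7. These were the 1 higher and 2 lower in CCR7-PDPN against X2 of each batch and the 1 higher in CCR7 against X2, where edgeR and DESeq2 called 0 lower (5 higher and 5 lower at an unadjusted p under 0.05). In CCR7-PDPN against X2 DESeq2 called 3 and 2 lower, with 6 higher in each batch and 9 and 10 lower unadjusted. Adh7 was the 1 lower against CCR7 and against X2-PDPN, at −1.41 (SE 0.0863, adjusted p = 6.06e-11, or −1.45 without replicate 1 of CCR7) and −1.81 (SE 0.0842, adjusted p = 6.14e-23), with 0 called higher by either tool (6 and 5 higher and 6 and 9 lower unadjusted). The list's median was −0.22 and −0.14 in CCR7-PDPN against X2 of the 2 batches. As a description, the log2 fold change of Stra6 in X2-PDPN against X2 was 2.39 (SE 0.108).

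Of 19 tested genes of the NRF2 pathway, which answers electrophiles, Nqo1 and Gsta4 rose in CCR7-PDPN against X2. The log2 fold change of Nqo1 was 1.21 (SE 0.0388, adjusted p = 1.13e-16) and 1.17 (SE 0.0343, adjusted p = 1.92e-30) in batches 1 and 2, and that of Gsta4 1.45 (SE 0.0523, adjusted p = 8.27e-16) and 1.49 (SE 0.0558, adjusted p = 2.01e-26). Gsta4 was also the 1 gene higher in CCR7 against X2, at 1.16 (SE 0.0535, adjusted p = 8.39e-14), or 1.14 without replicate 1 of CCR7. Nqo1 was just short of a call there, at 0.98 (SE 0.0390, adjusted p = 8.22e-15). Slc7a11 depended on that library: with all libraries it stood at 0.89 for CCR7 against X2 and −0.97 for CCR7-PDPN against CCR7, and it passed the threshold without replicate 1, at 1.05 and −1.12. In the 3 comparisons with X2 edgeR and DESeq2 called 0 lower, and at an unadjusted p under 0.05 there were 10, 9 and 11 higher and 6, 6 and 3 lower. Against X2-PDPN, Nqo1 rose by 1.16 (SE 0.0341, adjusted p = 1.71e-30) and Gstm1 fell by −1.28 (SE 0.0365, adjusted p = 5.91e-31), with 9 higher and 7 lower unadjusted. Gstm1, like Aox3 and Aldh3a1, was higher in X2-PDPN than in X2, at 1.36 (SE 0.0366), and so was Gsta4, at 1.69 (SE 0.0543), both as a description. Nqo1 was at 0.01 there (SE 0.0365). Neighbouring genes were compared for the members only, so whether genes near Nqo1 on its chromosome shared its difference was not tested. Between CCR7-PDPN and CCR7 both tools called 0 in either direction, with 7 higher and 6 lower at an unadjusted p under 0.05. The list's median was 0.11 and 0.06 in CCR7-PDPN against X2.

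Of 4 tested genes of the aryl hydrocarbon receptor pathway, of which Aldh3a1 is a known target, Nqo1 was the 1 called higher in each comparison of CCR7-PDPN with X2 and X2-PDPN. This is the Nqo1 of the NRF2 list, whose neighbouring genes were not compared. The receptor gene itself, Ahr, had 0 counts in every library of batch 1 and no entry in batch 2, and its targets Cyp1a1, Cyp1a2 and Cyp1b1 reached at most 1 count in a library of batch 1 and had no entry in batch 2. In those comparisons edgeR and DESeq2 called 0 lower (1 higher and 2 lower unadjusted in each). In CCR7 against X2 and CCR7-PDPN against CCR7 both tools called 0, with 1 higher and 2 lower, and 1 higher and 1 lower, unadjusted. The list's median was −0.14 and −0.13 in CCR7-PDPN against X2.

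Among 13 tested genes of other carbonyl metabolism, the aldo-keto reductases Akr1c13 and Akr1b7 were called. In batch 2, Akr1c13 rose in CCR7-PDPN against X2 by 1.27 (SE 0.404, adjusted p = 0.00569). In batch 1 it passed the filter on low counts through CCR7-PDPN alone, the group in which it was then called higher, at 1.37 against CCR7 (SE 0.310, adjusted p = 0.00124) and 1.89 against X2 (SE 0.337, adjusted p = 5.38e-05). With no filter these were 1.38 (SE 0.366, adjusted p = 0.00135) and 1.89 (SE 0.396, adjusted p = 1.10e-05). Akr1b7 fell against CCR7 by −1.03 (SE 0.283, adjusted p = 0.00602) in batch 1. In batch 2 it passed the filter through X2 alone and was called lower in CCR7-PDPN against X2, at −1.38 (SE 0.385, adjusted p = 0.00177), or with no filter −1.38 (SE 0.390, adjusted p = 0.0021). X2-PDPN cells were also below X2 in Akr1b7, at −1.57 (SE 0.387) as a description, and CCR7-PDPN against X2-PDPN gave 0.19 (SE 0.483, adjusted p = 0.744). Without replicate 1 of CCR7 the values against CCR7 were 1.54 for Akr1c13 and −1.17 for Akr1b7. Calls that rest on 1 group's passage through the filter included, these made 1 higher and 1 lower against CCR7 (8 and 1 unadjusted), 1 higher and 0 lower against X2 of batch 1 (8 and 4 unadjusted, 0 lower by DESeq2), and 1 and 1 in batch 2 (7 and 5 unadjusted). In CCR7 against X2 and in CCR7-PDPN against X2-PDPN both tools called 0, with 4 higher and 4 lower, and 6 higher and 3 lower, unadjusted. The list's median was 0.15 and 0.10 in CCR7-PDPN against X2, beside 0.00 over all tested genes.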

How the data were processed

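RNA was sequenced from 24 libraries (TruSeq Stranded mRNA, Illumina NextSeq, 75-base single-end reads). The authors aligned reads to GRCm38 and counted them per gene with featureCounts, and the deposited tables hold raw counts. Members were found by symbol in the batch 2 table and by Ensembl identifier in batch 1. Genes kept by filterByExpr were fitted within each batch over 3 groups and 12 libraries with edgeR 4.0.16 (TMM factors 0.986 to 1.017, robust quasi-likelihood) in R 4.3.3, and were adjusted over all genes tested. CPM used TMM-scaled totals, and TPM the deposited exonic lengths. Correlations used a prior count of 2 and genes averaging a log2 CPM of 1 or more. Gene positions came from the deposited table and transcripts from GENCODE M21. Named genes were the members, the genes of the 6 lists called in any comparison, those within 1 Mb of Aox3 and those most like each member. Also named were genes of the checks on labels, cell types and shared sequence, and the list genes Xdh, Slc7a11, Ahr, Cyp1a1, Cyp1a2 and Cyp1b1. With all libraries, none of these list genes was called. Alternatives were DESeq2 1.42.0, other scaling, other filters, the 2 groups alone, a replicate block, no fold threshold and leaving out each library. Pooled ratios (exact binomial intervals, scipy 1.17.1), the correlation without X2-PDPN and the list genes without replicate 1 of CCR7 or with no filter were chosen after seeing the data. So was an exact permutation test of Aldh1a3, run after its libraries were seen not to overlap and not used. Replicates spread by 2.07 to 8.48 times the counting variance, except in pairs with replicate 1 of CCR7 in batch 1 (13.5 to 22.5). The members and lists were chosen with earlier results of these data known. RefSeq proteins were not available.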

Additional observations from a re-analysis of the deposited data

Results flagged for a closer look

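Members were checked for a library standing far from the other 3 of its group. Of 41 groups checked 6 held such a library. Chance flags about 1 in 20 groups, which is 2.05 of 41.

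Of the 6, 3 rested on 1 or 2 counts. Aldh1a1 had 0.0310 CPM (1 count) in replicate 1 of CCR7 and 0.0315 CPM (1 count) in replicate 1 of CCR7-PDPN in batch 1, and Aldh1b1 had 0.0641 CPM (2 counts) in replicate 2 of CCR7-PDPN in batch 1, with 0 in the other libraries of each group. The others were of Aldh3a2. It held 52.0 CPM in replicate 1 of X2 in batch 1 against 48.0 to 48.7 in the rest, 42.7 CPM in replicate 4 of CCR7-PDPN in batch 1 against 45.4 to 45.5, and 44.3 CPM in replicate 1 of CCR7-PDPN in batch 2 against 46.1 to 46.5. Causes were not tested.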

How the results depend on the processing

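Of 364 alternative values for 23 tested log2 fold changes of members, 344 kept their direction and their side of the threshold, 14 passed it only when the fold threshold was dropped, and 6 changed sign. All 102 values for the 7 given as a description kept their direction and moved less than the replicates spread, among them Aox1 in X2-PDPN against X2, at 1.01 without replicate 4 of X2-PDPN. All 6 came from leaving out a library: Aox3 in CCR7-PDPN against CCR7 became 0.58 without replicate 1 of CCR7, and 0.09 and 0.23 without replicates 1 and 2 of CCR7-PDPN (range −0.49 to 0.58). Aldh3a1 there became 0.00270 without replicate 2 of CCR7 (range −0.14 to 0.00270), and Aldh3a2 in CCR7 against X2 became −0.00153 and −0.0186 without replicates 3 and 4 of CCR7 (range −0.0186 to 0.0426). The median near Aox3 against X2-PDPN was −0.0739 within 0.5 Mb.

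With no fold threshold, members called were 2 higher and 1 lower in CCR7-PDPN against CCR7, 1 and 2 in CCR7 against X2, 1 and 4 in CCR7-PDPN against X2 of batch 1, 1 and 2 in batch 2, and 3 lower against X2-PDPN. By DESeq2, and by edgeR with no filter, Aldh1a3 joined: 2 were lower in CCR7 against X2, 2 and 1 in CCR7-PDPN against X2 of batches 1 and 2, and 2 against X2-PDPN. With at least 10 counts in every library Aox3 was no longer tested, so 0 were lower in CCR7 and in CCR7-PDPN against X2 of batch 1. Leaving out a library of batch 2 let Aldh1a3 pass the filter, giving 0 to 1 lower against X2 (1 without any library but replicate 3 of X2) and 2 against X2-PDPN. Of the 5 genes most like Aox3, 2 remained over 6 group means and 0 over 20 libraries, an alternative chosen after seeing the data.

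All genes called, 433, 859, 1253, 1282, 1219 and 673 in the 6 comparisons, came to 185, 420, 711, 700, 648 and 310 with at least 10 counts, and to 5513, 6534, 8071, 8626 and 8411 in the 5 tested with no fold threshold; with no filter the third was 1891. Replicate numbers did not pair libraries, and as a block they changed no member's call (Aox3 in CCR7 against X2, −2.60). Without replicate 1 of CCR7, chosen after seeing the data, Slc7a11 was also called, at 1.05 in CCR7 against X2 and −1.12 in CCR7-PDPN against CCR7. TPM over the genes of both tables moved by at most 0.307%. Depth limited Aldh1a1 and Aldh1b1, at 4 counts or fewer.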
